A study of Homo sapiens with 6 samples.

Results

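The genes described here encode the proteins that start, extend and end translation on cytosolic ribosomes, the initiation factors (eIF), elongation factors (eEF) and release factors, with poly(A)-binding proteins, eIF4E-binding proteins and enzymes that modify the elongation factors. They were chosen by symbol: protein-coding genes beginning with EIF1 to EIF6 or with EEF1 or EEF2, plus ETF1, GSPT1, GSPT2, PABPC1 and PABPC4, without the eIF2 and eIF2B subunits, the eIF2α kinases, EEF1E1 and EIF1AY. This gave 61 genes of the 46427 in the deposited tables, 19672 of which are protein-coding. The RNA of K562 cells was sequenced in 3 libraries from cells given 10 µM HR-19011 for 24 h and in 3 libraries from cells given 0.1% DMSO as vehicle for 24 h, all labelled wild type. K562 is an established human erythroleukemia line, so all values come from 1 line, and HR-19011 is known only by this code. How much DMSO the HR-19011 cells received is not stated in the labels. Nor do they say that replicate libraries of a group were grown apart, so the p-values reflect the spread among these libraries, which may be technical. The series title places the compound in the HRI, eIF2α and ATF4 branch of the integrated stress response, in which phosphorylated eIF2 slows general initiation.

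Initiation in human cells begins when eIF4E, held on the scaffold eIF4G with the helicase eIF4A (together eIF4F), binds the mRNA cap, and eIF3 brings in the small ribosomal subunit with eIF1, eIF1A and eIF5, which set start codon choice. eIF5B then joins the large subunit, eEF1A delivers aminoacyl-tRNA, eEF2 moves the ribosome along, eIF5A eases slow peptide bonds, and eRF1 with eRF3 releases the chain. Many of these mRNAs, like those of ribosomal proteins, carry a terminal oligopyrimidine (TOP) tract, a cytosine followed by pyrimidines at the very start of the transcript, through which mTORC1 and LARP1 regulate their translation and stability.

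The deposited values were FPKM, fragments scaled to transcript length and to library size, so levels are per length and can be set side by side between genes. Read counts were not used here and the depth behind each value is unknown, so no counting interval is given. Summed FPKM lay between 420661 and 427819 in the HR-19011 libraries and between 456639 and 467595 in the vehicle libraries. All 10 erythroid markers of K562 were at 1 FPKM or more in each library, and their sum was 4285 to 4509 FPKM with HR-19011 against 9913 to 10098 FPKM with vehicle. They did not move equally. Log2 fold changes ran from -2.70 for KLF1, with -1.35 for HBG1 and -1.22 for HBG2, to -0.16 for TFRC. TAL1 was not called (0.03). Of 16 markers of lymphoid, myeloid, stromal and endothelial cells, CD3D and LYZ reached 1 FPKM in all 6 libraries and 4 (CD2, MS4A1, CDH5 and ELANE) were listed at 0 in all. The 16 summed to 27.5 to 28.6 FPKM with HR-19011 and 19.8 to 23.2 FPKM with vehicle. The part of this marker shift in the results below was not tested, and in a bulk sample fewer cells of a type and less RNA per cell cannot be told apart.

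Of 30 tested initiation factor genes, eIF6 included, 19 were lower with HR-19011 and 10 higher, leaving out the eIF4E-binding proteins, EIF4ENIF1, EIF1AD, EIF4A3 and EIF3CL. Of the 3 most abundant elongation factor genes, EEF1A1 and EEF2 were higher under each of 4 library scalings and EEF1G under 3 of them. Of 56 factor genes that averaged 1 FPKM or more over the 6 libraries, 20 were higher and 32 lower in HR-19011 than in vehicle (limma on log2(FPKM + 1), Benjamini-Hochberg adjusted p under 0.05 over all tested genes), and 4 were not called. Over the whole transcriptome 84.4% of 11856 tested genes were called, 46.4% higher and 38.0% lower, so a call alone was common. Among the tested factor genes 35.7% were higher and 57.1% lower, and their median log2 fold change was -0.21, against 0.07 over all tested genes. The balance depended on library scaling: after TMM scaling, which moved the all-gene median by -0.22, 11 factor genes were higher and 36 lower. Quantile normalization gave 19 higher and 29 lower and moved the all-gene median by -0.12, and TPM gave 22 and 28 and moved it by 0.12. The median of the factor genes was -0.46 against -0.15 over all tested genes after TMM scaling, and -0.11 against 0.19 under TPM. Under quantile normalization it was -0.11 against -0.05, a gap of -0.06 in place of -0.28 as deposited. Of the called factor genes 23.4% were higher after TMM scaling, against 40.1% of all called genes. These shares were 39.6% against 46.4% under quantile normalization, 44% against 62.2% under TPM and 38.5% against 55.0% as deposited. Under all 4 scalings 11 genes were called higher and 26 lower. The values of the groups did not overlap for 51 of the 56 genes, where 85.2% of all tested genes had no overlap. The 5 that overlapped were EIF2D, EEF1B2, EEF1D, EEF2K and EEF1AKMT1. A fold change of 2 or more on this log2 scale was reached by 0 factor genes upward, where 12.0% of all tested genes reached it, and by 6 downward (EIF5A, EEF1AKNMT, EIF5B, EIF4A3, EIF3B and EIF1AX), where 6.45% did. The downward count was 13 after TMM scaling and 4 under TPM, which put 1 gene past this fold upward. The lowest group mean of a tested factor gene was 1.72 FPKM, so none passed the filter through 1 group alone.

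**Figure D1:**
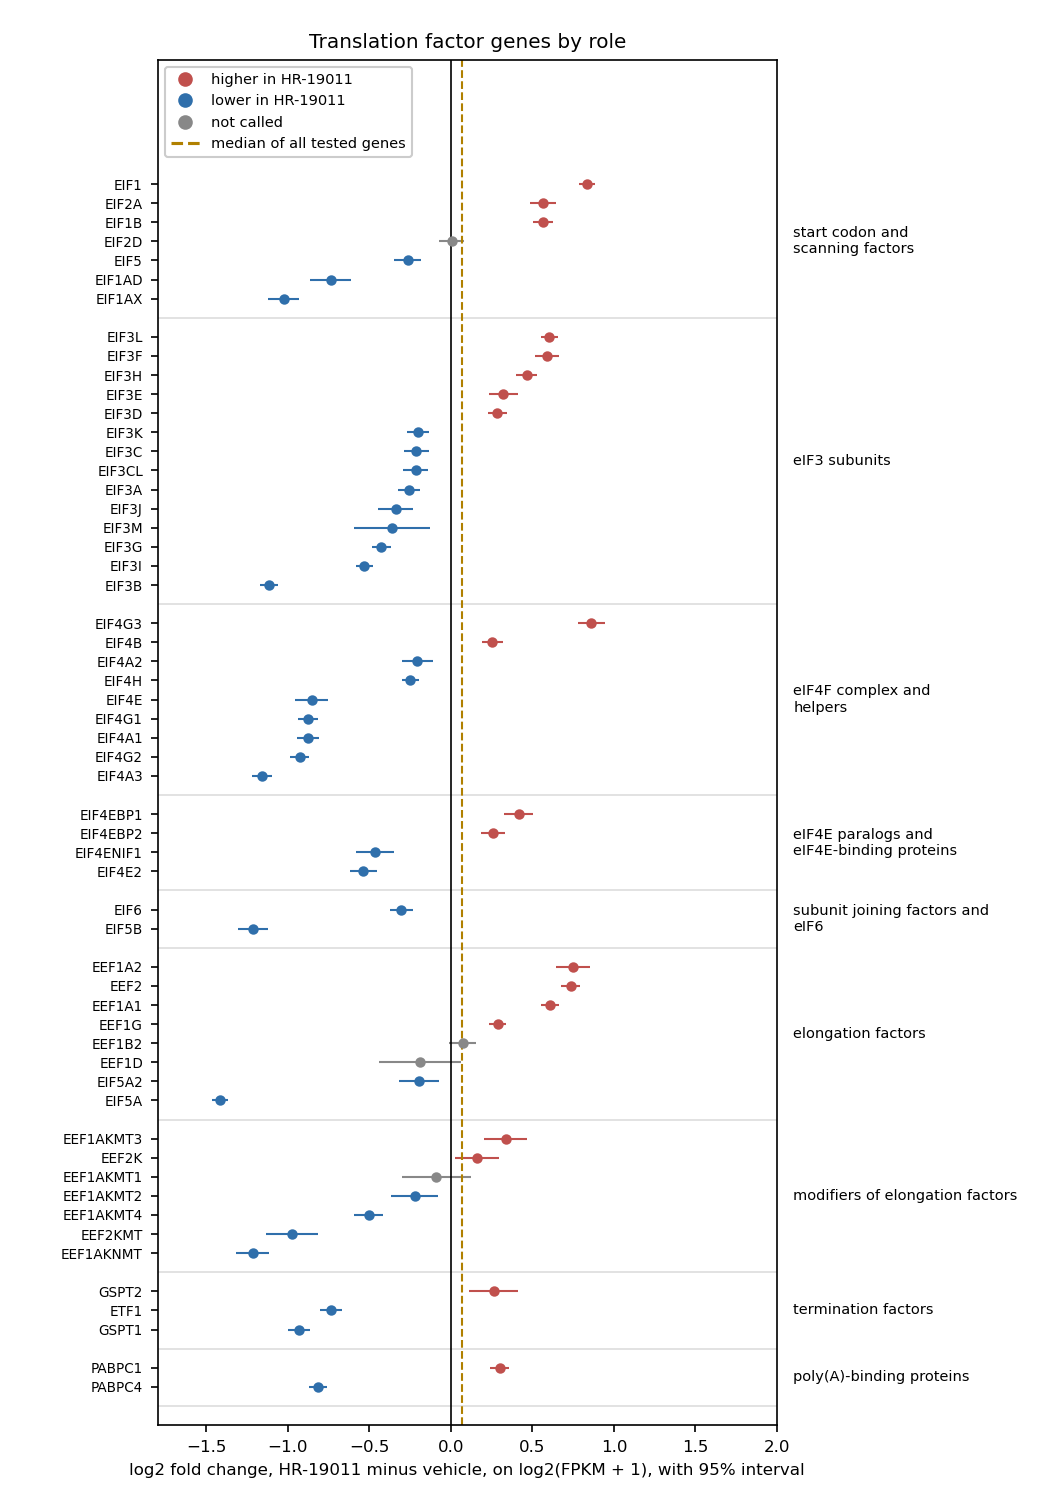
Log2 fold change (HR-19011 minus vehicle, on log2(FPKM + 1)) of the 56 tested factor genes, 1 point per gene with its 95% interval, grouped by role, with EIF4A3 drawn beside the eIF4F genes. Most of these lie left of 0, the eIF3 subunits fall on both sides, and EEF1A1, EEF1A2, EEF1G and EEF2 lie on the right while EIF5A is the lowest gene at -1.42.

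The 7 genes grouped as start codon and scanning factors, EIF1AD and EIF2D among them, had 3 higher, 3 lower and 1 not called. The 3 lower include EIF1AD, which the count of initiation factors above leaves out. EIF1, whose protein keeps the scanning ribosome from stopping at poor start sites, had 313, 314 and 310.3 FPKM with HR-19011, against 173, 177 and 175 FPKM with vehicle. It was 1.79-fold higher, with no overlap, a log2 fold change of 0.83 (95% interval 0.78 to 0.88) and an adjusted p of 1.89e-09. Its near relative EIF1B had 94.4, 93.7 and 90.9 FPKM with HR-19011 and 63.5, 61.5 and 62.8 FPKM with vehicle, 1.49-fold higher. EIF1AX, the gene of eIF1A, which acts with eIF1 on the small subunit, went the other way. Its values were 22.4, 22.0 and 21.7 FPKM with HR-19011 and 48.2, 43.2 and 46.2 FPKM with vehicle, a log2 fold change of -1.03 with an adjusted p of 2.85e-08. EIF1AD, an eIF1A-related protein of small subunit maturation, was also lower (log2 fold change -0.74), as was EIF5, the GTPase activator of eIF2 (-0.26). EIF2A, an alternative carrier of initiator tRNA that is distinct from the eIF2α subunit, was higher (0.57). EIF2D, which acts in recycling and reinitiation, averaged 44.7 ± 1.74 FPKM with HR-19011 and 44.5 ± 0.715 FPKM with vehicle (SD, n = 3 each), and the 95% interval of its log2 fold change ran from -0.08 to 0.08. EIF2D depended on the scaling, being called lower under TMM (-0.25) and higher under quantile normalization (0.15) and TPM (0.13). The other 6 genes of this group were called in the same direction under all 4 scalings.

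The eIF3 complex did not move as 1 unit: of 14 subunit genes, 5 were higher (EIF3D, EIF3E, EIF3F, EIF3H and EIF3L) and 9 lower. The 9 include both EIF3C and its copy EIF3CL. Quantile normalization gave 5 higher and 6 lower, and TMM scaling 3 higher and 9 lower. The 3 subunits b, g and i, which form a peripheral module near the mRNA channel, were all lower, under all 4 scalings. EIF3B, their scaffold, had 94.9, 92.7 and 92.1 FPKM with HR-19011 and 201, 204 and 205 FPKM with vehicle, a log2 fold change of -1.12 (adjusted p = 7.41e-10) with an SE of 0.024. EIF3I had 163, 165 and 162 FPKM with HR-19011 and 235, 235 and 239 FPKM with vehicle, and EIF3G was lower by a smaller margin (log2 fold change -0.43). The 8 subunits that build the core of PCI and MPN domains (a, c, e, f, h, k, l and m) divided into 4 higher and 4 lower. Among them EIF3L had 161, 164 and 164 FPKM with HR-19011, against 107, 107 and 108 FPKM with vehicle, 1.52-fold higher with an adjusted p of 1.74e-08. EIF3F (log2 fold change 0.59) and EIF3H (0.46) rose under all 4 scalings, whereas the rises of EIF3E (0.32) and EIF3D (0.28) were not called after TMM scaling, at adjusted p = 0.123 and 0.304. EIF3D can itself bind the cap of selected mRNAs.

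The falls in the rest of the core were small. EIF3A, the largest subunit, had 58.5, 60.1 and 58.1 FPKM with HR-19011 and 70.8, 68.5 and 72.4 FPKM with vehicle, a log2 fold change of -0.26. EIF3K (-0.20) and the loosely attached EIF3J (-0.34) were of the same order. The lower call of EIF3M rested partly on 1 library, with 66.5, 65.9 and 64.3 FPKM in HR-19011 libraries and 103, 75.9 and 76.9 FPKM in vehicle libraries. Without vehicle replicate 1 its log2 fold change was -0.22 and still called, but it was no longer called with quantile normalization (adjusted p = 0.109), TPM (0.0592) or no filter (0.0530). EIF3C and its near-identical copy EIF3CL cannot be separated with certainty, since the sources used here do not give the rule for dividing shared reads. Their sum was 224 ± 9.42 FPKM with HR-19011 and 260.3 ± 4.66 FPKM with vehicle (SD, n = 3 each). Each was lower (-0.21 and -0.22), and both calls were lost under quantile normalization, at adjusted p = 0.0534 and 0.0664.

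**Figure D2:**
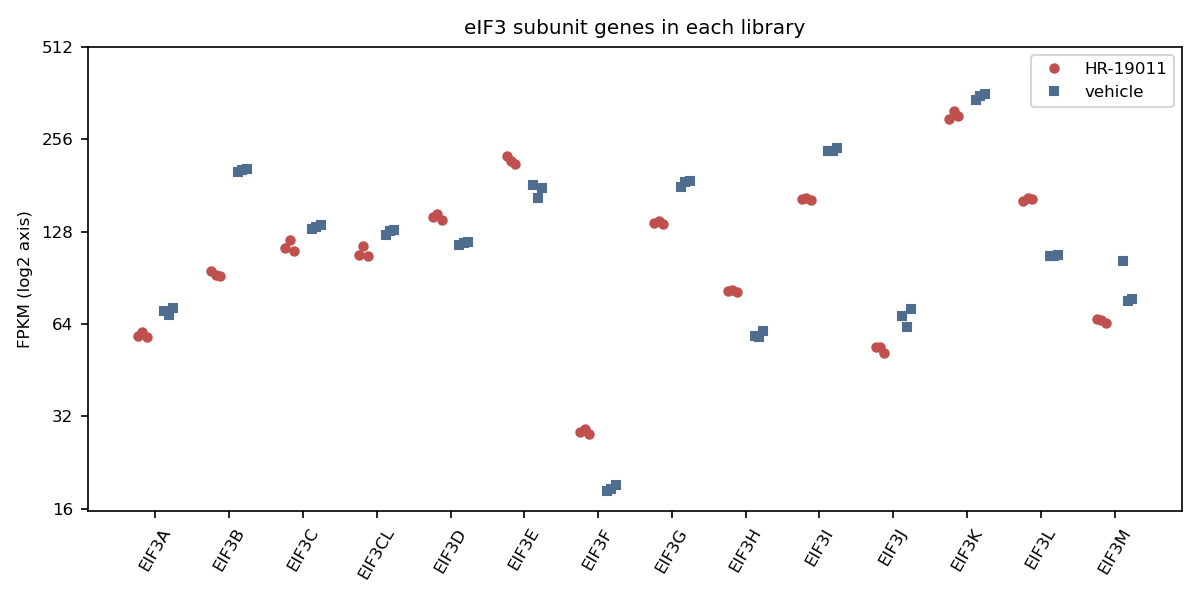
FPKM of the 14 eIF3 subunit genes in each library on a log2 axis, HR-19011 as circles and vehicle as squares. The circles of EIF3B lie near 93 FPKM and its squares near 203 FPKM, the circles of EIF3L lie above its squares, and 1 vehicle square of EIF3M stands at 103 FPKM above the other two.

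Genes of the cap-binding complex eIF4F and its helpers were mostly lower, 6 of 8, with 2 higher and a median of -0.55 for the log2 fold change. EIF4E, which binds the cap and lies at chr4:98879276-98929133 (GRCh38.p14), had 4.45, 4.72 and 4.67 FPKM with HR-19011 and 9.29, 8.77 and 9.35 FPKM with vehicle. That is a log2 fold change of -0.85 (95% interval -0.95 to -0.75, adjusted p = 1.33e-07), and EIF4E was the lowest of these 8 genes in level in both groups. The main scaffold gene EIF4G1 (chr3:184314606-184335358) had 105, 108 and 105 FPKM with HR-19011 and 192, 194 and 199.9 FPKM with vehicle, a log2 fold change of -0.88. EIF4G2, a related scaffold without an eIF4E-binding site, had 153, 157 and 156 FPKM with HR-19011 and 303, 289 and 295 FPKM with vehicle. EIF4G3 (chr1:20806292-21176897), the other full-length scaffold, was the highest of all tested factor genes by log2 fold change as deposited, at 0.86. Under quantile normalization EIF1 (0.96) stood above it (0.80). EIF4G3 had 17.4, 17.8 and 17.7 FPKM with HR-19011, against 9.03, 9.14 and 9.60 FPKM with vehicle, so the rare scaffold was higher while the abundant one was lower.

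The helicase genes differed in the size of their fall. EIF4A1 had 269, 278 and 263 FPKM with HR-19011 and 486, 492 and 513 FPKM with vehicle, a log2 fold change of -0.88. EIF4A2 had 87.7, 95.5 and 90.6 FPKM with HR-19011 and 106, 100.5 and 109 FPKM with vehicle. Its log2 fold change of -0.21, the smallest of the 3 helicases, was not called under quantile normalization (adjusted p = 0.282) or TPM (0.0549). EIF4A3, a core component of the exon junction complex and not counted among the 8, had 24.2, 24.3 and 24.3 FPKM with HR-19011 and 55.7, 54.6 and 55.6 FPKM with vehicle, a log2 fold change of -1.16. Of the cofactors of eIF4A, EIF4H was lower (-0.25), and EIF4B was higher as deposited at 0.25 but at -0.00 after TMM scaling.

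The eIF4E-binding proteins compete with eIF4G for eIF4E and are released from it when mTORC1 phosphorylates them. EIF4EBP1 had 104, 101 and 103 FPKM with HR-19011 and 72.7, 80.9 and 76.7 FPKM with vehicle, 1.34-fold higher with a log2 fold change of 0.42 (95% interval 0.33 to 0.51, adjusted p = 8.67e-06). It was called higher under each scaling, at 0.16 after TMM scaling, 0.58 under quantile normalization and 0.54 under TPM. EIF4EBP2 had 34.7, 34.5 and 35.7 FPKM with HR-19011 and 29.9, 28.4 and 28.8 FPKM with vehicle, a log2 fold change of 0.26 that was not called after TMM scaling (0.01, adjusted p = 0.733). EIF4EBP3 stayed below the filter, at 0.557, 0.498 and 0.604 FPKM with HR-19011 and 0.161, 0.198 and 0.182 FPKM with vehicle. With no filter on low values it was called higher (0.40, adjusted p = 0.000155).

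EIF4E2, which binds caps without eIF4G and acts in repression, had 22.0, 22.1 and 21.4 FPKM with HR-19011 and 30.6, 33.0 and 32.8 FPKM with vehicle, a log2 fold change of -0.54. EIF4E3 was listed at 1.38, 1.42 and 1.52 FPKM with HR-19011, against 0.168, 0.227 and 0.260 FPKM with vehicle. Its mean over the 6 libraries was below the filter and the groups did not overlap. With no filter it was called higher (1.00, adjusted p = 1.50e-05). EIF4ENIF1, which carries eIF4E to processing bodies, had 4.78, 4.97 and 4.56 FPKM with HR-19011 and 6.59, 7.22 and 7.10 FPKM with vehicle, a log2 fold change of -0.47 with an adjusted p of 2.05e-05. EIF4E1B, a germline form, was listed at 0 in all 6 libraries.

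Both EIF5B and EIF6, whose proteins act on the joining of the large subunit, were lower under all 4 scalings. EIF5B, the GTPase that joins the subunits, had 23.7, 23.0 and 22.9 FPKM with HR-19011 and 57.0, 51.9 and 56.8 FPKM with vehicle, a log2 fold change of -1.21 (adjusted p = 8.86e-09) with an SE of 0.041. EIF6, which keeps free large subunits from joining and serves their maturation, had 108, 112 and 107 FPKM with HR-19011 and 132, 133 and 139.7 FPKM with vehicle, a log2 fold change of -0.31.

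**Figure D3:**
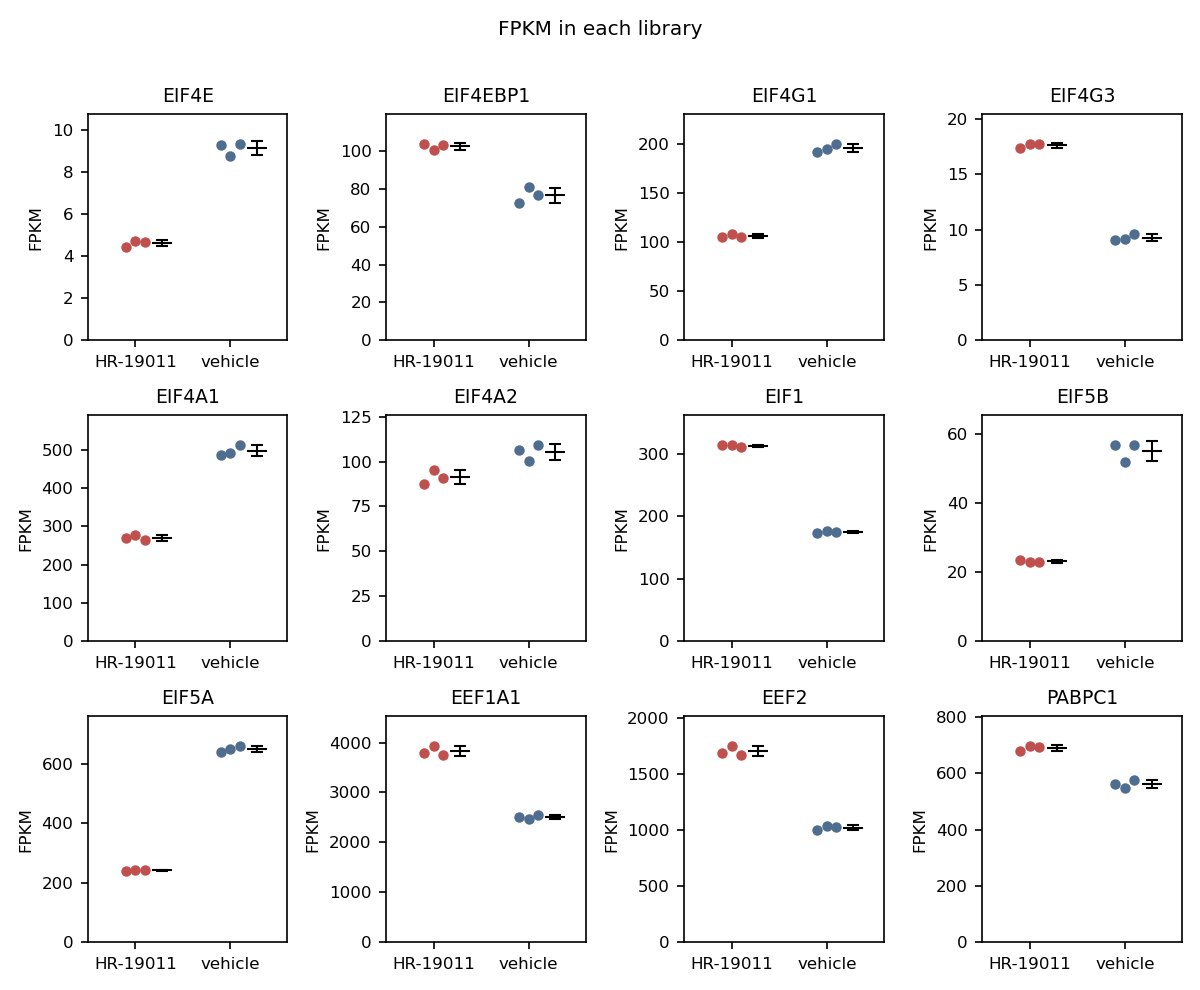
FPKM of 12 factor genes in each library, with the mean and SD (n = 3) beside each group and each axis starting at 0. EIF4E, EIF4G1, EIF4A1, EIF5B and EIF5A lie lower in HR-19011 with no overlap, while EIF4EBP1, EIF4G3, EIF1, EEF1A1, EEF2 and PABPC1 lie higher.

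The elongation factors held both the highest levels and the deepest fall. Of 9 genes 8 were tested, with 4 higher, 2 lower and 2 not called. After TMM scaling the balance turned, with 3 higher and 4 lower. EEF1A1, which brings aminoacyl-tRNA to the ribosome, was the most abundant factor mRNA, at 3795, 3933 and 3749.8 FPKM with HR-19011 and 2514, 2477 and 2545 FPKM with vehicle. It was 1.52-fold higher, at a log2 fold change of 0.61 (95% interval 0.55 to 0.66, adjusted p = 2.50e-08). EEF2, the translocase, had 1691, 1755 and 1670.2 FPKM with HR-19011 and 1002, 1043 and 1029.7 FPKM with vehicle, 1.66-fold higher with an adjusted p of 1.29e-08. The tissue-restricted form EEF1A2 was also higher at a far lower level, with 13.7 ± 0.529 FPKM in HR-19011 and 7.77 ± 0.339 FPKM in vehicle (SD, n = 3 each). These 3 rises were called under all 4 scalings.

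The exchange factor that recharges eEF1A moved less. EEF1G was higher by 0.29 on the log2 scale as deposited but by 0.03 after TMM scaling, where it was not called (adjusted p = 0.235). EEF1B2 averaged 428 ± 21.3 FPKM with HR-19011 and 407 ± 7.13 FPKM with vehicle, and EEF1D averaged 135 ± 20.8 FPKM with HR-19011 and 154 ± 18.4 FPKM with vehicle. Neither was called, at adjusted p = 0.0942 and 0.136, and the values of both overlapped between the groups. TMM scaling called both lower (-0.18 for EEF1B2 and -0.45 for EEF1D), while quantile normalization and TPM called EEF1B2 higher (0.07 and 0.20). As deposited, EEF1D was called lower without HR-19011 replicate 2, its highest HR-19011 library (-0.31, adjusted p = 0.0132), and EEF1B2 was called higher without HR-19011 replicate 3.

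EIF5A (chr17:7306999-7312463, GRCh38.p14) was lower by the widest margin of the 56 tested factor genes. It had 240.0, 243 and 244 FPKM with HR-19011, against 639, 648 and 659.6 FPKM with vehicle, so vehicle cells held 2.68-fold more. The log2 fold change was -1.42 (95% interval -1.47 to -1.37, adjusted p = 1.54e-10), and it lay between -1.67 and -1.30 over the 4 scalings. Its paralog EIF5A2, at 1.72 ± 0.0461 FPKM with HR-19011 and 2.11 ± 0.0956 FPKM with vehicle (SD, n = 3 each), was lower (-0.20), which TPM did not call (adjusted p = 0.0707). EIF5AL1, a copy of EIF5A, was listed at 0.0563 to 0.0966 FPKM in HR-19011 and 0.156 to 0.250 FPKM in vehicle and not tested at this filter. With no filter its log2 fold change was -0.16, called lower.

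As a share of the measured transcriptome, the 61 genes held 2.90% ± 0.0372 of summed FPKM in HR-19011 libraries and 2.40% ± 0.00952 in vehicle libraries (SD, n = 3 each). EEF1A1, EEF1G and EEF2 alone differed by 0.618 percentage points, more than the 0.504 of all 61. The members other than elongation factors and poly(A)-binding proteins held less, 0.904% ± 0.00396 in HR-19011 and 0.977% ± 0.00241 in vehicle. The 9 elongation factor genes held 1.82% ± 0.0335 in HR-19011 and 1.27% ± 0.00808 in vehicle, while the 8 genes of eIF4F and its helpers held 0.249% ± 0.00175 in HR-19011 and 0.330% ± 0.00230 in vehicle. The eIF3 subunits together held 0.410% ± 0.00313 in HR-19011 and 0.419% ± 0.000366 in vehicle. None of these shares overlapped between the groups, and the exact two-sided permutation test gave p = 0.1 for each, the smallest that 3 against 3 libraries allow. The differences depended on the total: without mitochondrially encoded and globin genes, the difference for all 61 genes was 0.301 percentage points in place of 0.504, and for elongation factors 0.491 in place of 0.548. On that total the eIF3 difference was -0.0627 in place of -0.00958, the eIF4F difference -0.136 in place of -0.0813 and that of the members other than elongation factors and poly(A)-binding proteins -0.205 in place of -0.0725. EEF1A1 has 37 annotated pseudogenes in the tables, which summed to 1149.6 ± 49.6 FPKM with HR-19011 and 784 ± 26.2 FPKM with vehicle, and how shared reads were divided between them is not known here. The 3 EIF3F pseudogenes summed to 14.1 ± 0.661 FPKM with HR-19011 and 9.10 ± 0.541 FPKM with vehicle, so EIF3F carries the same uncertainty.

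Enzymes that act on the elongation factors were lower in 4 of 7 tested cases and higher in 2. EEF1AKNMT, also called METTL13, which methylates eEF1A, had 13.5, 14.1 and 12.7 FPKM with HR-19011 and 31.4, 32.5 and 33.6 FPKM with vehicle, a log2 fold change of -1.22 (adjusted p = 1.47e-08). EEF2KMT, a methyltransferase of eEF2, had 4.35, 3.76 and 4.78 FPKM with HR-19011 and 9.13, 9.23 and 9.83 FPKM with vehicle, a log2 fold change of -0.98. EEF1AKMT4 had 11.8, 12.2 and 12.4 FPKM with HR-19011 and 17.0, 18.3 and 17.6 FPKM with vehicle, and all 3 falls were called under every scaling. The smaller calls were less firm. EEF2K, the kinase that inhibits eEF2, had 9.87, 9.22 and 10.5 FPKM with HR-19011 and 8.51, 8.21 and 9.43 FPKM with vehicle. These overlapped, and its higher call (0.16, adjusted p = 0.0340) was lost without HR-19011 replicate 1 or 3 or vehicle replicate 1 or 2, and its sign turned to -0.07 after TMM scaling. EEF1AKMT3 was higher (0.34) but not after TMM or quantile scaling, EEF1AKMT2 was lower (-0.22) but not under TPM, and EEF1AKMT1 was not called as deposited at adjusted p = 0.393. TMM scaling (-0.29) and quantile normalization (-0.40) called EEF1AKMT1 lower. The read-through gene EEF1AKMT4-ECE2 was listed at 0.0171 FPKM or less in every library.

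Termination and poly(A)-binding genes each held a lower gene called under all 4 scalings and a higher paralog whose call TMM scaling removed. ETF1, which encodes eRF1, the protein that reads stop codons, had 53.5, 52.6 and 54.3 FPKM with HR-19011 and 91.8, 87.0 and 89.8 FPKM with vehicle, a log2 fold change of -0.73. GSPT1, the main gene of its partner GTPase eRF3, had 22.6, 23.4 and 23.0 FPKM with HR-19011 and 45.3, 44.2 and 45.1 FPKM with vehicle, a log2 fold change of -0.93 (adjusted p = 5.32e-09). The paralog GSPT2 had 3.04, 2.62 and 2.51 FPKM with HR-19011 and 2.05, 2.20 and 2.06 FPKM with vehicle. Its log2 fold change of 0.26 was 0.08 and not called after TMM scaling, and -0.09 under quantile normalization. PABPC1, the main cytoplasmic poly(A)-binding protein gene, had 679, 698 and 694 FPKM with HR-19011 and 561, 547 and 576 FPKM with vehicle, higher by 0.30 as deposited but not called after TMM scaling (0.04, adjusted p = 0.119). PABPC4 had 84.3, 85.2 and 83.6 FPKM with HR-19011 and 148, 149 and 152 FPKM with vehicle, a log2 fold change of -0.82 that was called under all 4 scalings.

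Ratios between related genes within a library do not change when a library is multiplied by a constant. Of 14 pairs, 13 had no overlap between the groups, and 85.3% of all pairs of tested genes had none either, so a lack of overlap alone was common. The ratio of EIF4G3 to EIF4G1 was 0.165, 0.165 and 0.169 in HR-19011 libraries and 0.0471, 0.0470 and 0.0481 in vehicle libraries, a 3.51-fold difference. EIF4EBP1 over EIF4E stood at 23.4, 21.3 and 22.1 in HR-19011 libraries, against 7.83, 9.23 and 8.20 in vehicle libraries, 2.65-fold apart. EIF4EBP2 over EIF4E averaged 7.59 ± 0.251 in HR-19011 and 3.18 ± 0.0824 in vehicle (SD, n = 3 each), so binding-protein mRNA per EIF4E mRNA was higher for both genes.

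Among the 11 pairs of paralogs, the less abundant form stood higher against the more abundant one in HR-19011 in 6, lower in 4 and overlapped in 1. EIF4A2 over EIF4A1 averaged 0.338 ± 0.0105 in HR-19011 and 0.212 ± 0.00721 in vehicle, GSPT2 over GSPT1 0.119 ± 0.0138 in HR-19011 and 0.0469 ± 0.00250 in vehicle, and EIF5A2 over EIF5A was 2.17-fold higher in HR-19011. EIF4E3 over EIF4E was 13.3-fold higher, from EIF4E3 values of at most 1.52 FPKM. EEF1A2 over EEF1A1 was 1.16-fold higher. The 4 that ran the other way were PABPC4 against PABPC1, EIF1B against EIF1, EIF4A3 against EIF4A1, and EIF4E against the more abundant EIF4E2. EIF4E2 over EIF4E averaged 4.73 ± 0.180 in HR-19011 and 3.52 ± 0.235 in vehicle. PABPC4 over PABPC1 stood at 0.122 ± 0.00188 in HR-19011 and 0.266 ± 0.00492 in vehicle. EIF4G2 over EIF4G1 was the pair that overlapped, at 1.46 ± 0.0176 in HR-19011 and 1.51 ± 0.0575 in vehicle, with an exact permutation p of 0.2. The exact permutation p of the other 13 pairs was 0.1, the smallest possible for 3 against 3 libraries, so none of the 14 can pass 0.05 before or after adjustment. Quantile normalization kept each sign but moved some log2 differences of ratios by over 1.5 times, to 0.55 in place of 1.12 for EIF5A2/EIF5A, 0.73 in place of 1.33 for GSPT2/GSPT1, 0.07 in place of 0.22 for EEF1A2/EEF1A1, 0.75 in place of 0.43 for EIF4E2/EIF4E and -0.11 in place of -0.05 for EIF4G2/EIF4G1.

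**Figure D4:**
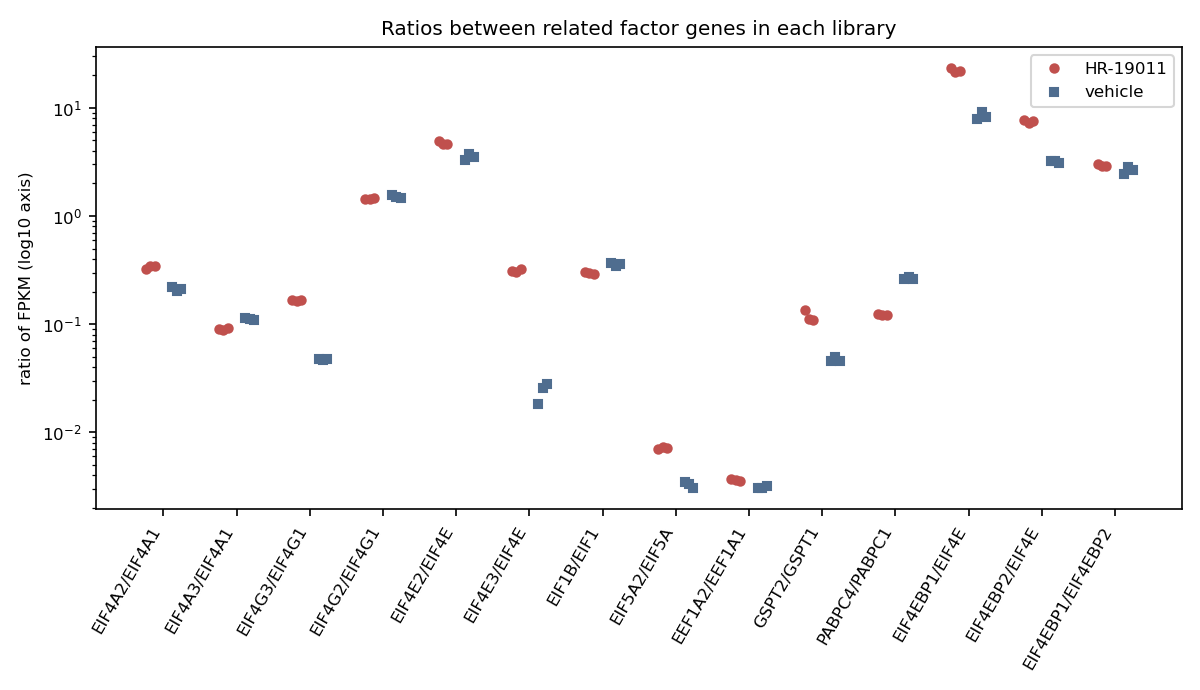
Ratio of FPKM between 14 pairs of related factor genes in each library on a log10 axis, HR-19011 as circles and vehicle as squares. The circles lie above the squares for EIF4G3/EIF4G1, GSPT2/GSPT1 and EIF4EBP1/EIF4E, below them for PABPC4/PABPC1, and mixed with them for EIF4G2/EIF4G1.

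The first transcribed bases of the factor genes were read for a TOP-like start. The RefSeq promoter table (GRCh38.p14) held an entry for 47 of the 61 genes. A pyrimidine start was counted where the first transcribed base was C and the next 4 were each C or T. This rule was chosen after the values were seen, and carries no test. It reads the listed starts alone, so its classes do not sort the genes into TOP mRNAs and others. Of 35116 single promoter entries 4.07% met the rule. A gene counted if any of its listed starts met it, as in 5.14% of 27305 genes with an entry and 7.80% of 8992 tested ones. Of the 47 factor genes 11 did (23.4%). The 9 that were called are shown because their starts can be compared with their direction, each as 15 bases before and 15 bases from the listed start, 5′ to 3′, with the first 8 transcribed bases in capitals. EEF2, EEF1A1, EIF3F, EIF2A, EIF3D and EIF4B were higher in HR-19011, and EIF3K, EIF4A2 and EIF3M lower.

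EEF2 (chr19:3985449-3985478, minus strand): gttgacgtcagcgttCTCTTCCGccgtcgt
EEF1A1 (chr6:73521018-73521047, minus strand): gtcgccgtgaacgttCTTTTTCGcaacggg
EIF3F (chr11:7987322-7987351, plus strand): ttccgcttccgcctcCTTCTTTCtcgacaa
EIF2A (chr3:150546772-150546801, plus strand): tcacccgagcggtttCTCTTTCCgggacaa
EIF3D (chr22:36529152-36529181, minus strand): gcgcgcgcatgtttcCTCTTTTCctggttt
EIF4B (chr12:53006441-53006470, plus strand): ttgcctcatccgggtCTTTTGCGttctctt
EIF3K (chr19:38619173-38619202, plus strand): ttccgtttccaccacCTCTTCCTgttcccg
EIF4A2 (chr3:186783562-186783591, plus strand): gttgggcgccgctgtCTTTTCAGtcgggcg
EIF3M (chr11:32583816-32583845, plus strand): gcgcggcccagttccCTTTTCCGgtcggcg

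By the rule each opens with a C and 4 pyrimidines. Of the 6 rises, 4 (EEF2, EEF1A1, EIF3F and EIF2A) were called under all 4 scalings. The 3 falls in this class were small, at -0.20, -0.21 and -0.36, and that of EIF3K alone was called under all 4 scalings. The last 2 genes with such a start, EEF1B2 and EIF2D, were not called as deposited, but were called lower under TMM and higher under quantile normalization and TPM. The balance of the 11 thus turned with the scaling, with 4 higher and 5 lower after TMM scaling and 8 higher and 1 lower under quantile normalization and under TPM. The median log2 fold change of the 11 was 0.25. Of the 36 genes whose listed start did not meet the rule, 31 were tested. As deposited, 7 of these were higher and 24 lower, and their median was -0.51. The counts of this class under the other scalings were not tallied. After TMM scaling its higher genes EEF1G, EIF4EBP2, GSPT2 and EEF2K were no longer called higher, and its lower genes stayed called lower. The 14 without an entry had 7 higher, 5 lower and 2 not called, with a median of 0.10.

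Across the transcriptome, 701 tested genes with a pyrimidine start had 368 higher and 227 lower and a median of 0.15. The 8291 tested genes with another start had 3863 higher and 3204 lower and a median of 0.07. Without the factor and ribosomal protein genes, 642 tested genes with a pyrimidine start had 332 higher and 217 lower (median 0.14). Of 8241 with another start 3847 were then higher and 3174 lower (median 0.07). For contrast, the 5 lowest called genes with a single listed start of another kind and EIF1, the highest gene of that kind, begin as follows in the same layout.

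EEF1AKNMT (chr1:171781645-171781674, plus strand): atcacgaggcttcgcACCCGGATatggtta
EIF5B (chr2:99337374-99337403, plus strand): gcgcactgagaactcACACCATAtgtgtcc
EIF4A3 (chr17:80147114-80147143, minus strand): gttctcggcagcggcACAGCGAGgtcggca
EIF3B (chr7:2354812-2354841, plus strand): ccccgtcgcacgcacATGGCTGGgctgtag
EIF1AX (chrX:20141824-20141853, minus strand): gcaaagagtcgcggcGCCATTTGctgccgc
EIF1 (chr17:41688870-41688899, plus strand): aggcaccgcccctctGCCCCAGTcactgag

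The first 8 bases of EEF1AKNMT, EIF5B, EIF4A3 and EIF3B begin with A, and those of EIF1AX and EIF1 with G. EIF1 was higher without a pyrimidine start. The listed start of EIF3B lies inside the gene's RefSeq span, not at its edge. CACGTG and TGATGNAA were also searched on both strands of the 300-base promoter entries. CACGTG, the E-box bound by MYC and MAX among others, was present in 13 of 47 factor genes (27.7%). It was present in 8.77% of all genes and 13.2% of tested genes with an entry, and in 7.26% of single promoter entries. Of those 13 genes 11 were tested, with 4 higher and 7 lower. The 31 tested factor genes with an entry but without CACGTG had 9 higher and 20 lower. Over all genes with CACGTG, 511 of 1187 tested were higher and 494 lower. TGATGNAA, the core of the element bound by ATF4 with C/EBP proteins, was present in 1 of the 47 (EIF4E3), 2.13%. It was present in 4.46% of all genes and 2.49% of tested genes with an entry, and in 3.62% of single promoter entries. A match says only that these letters occur in the window.

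**Figure D5:**
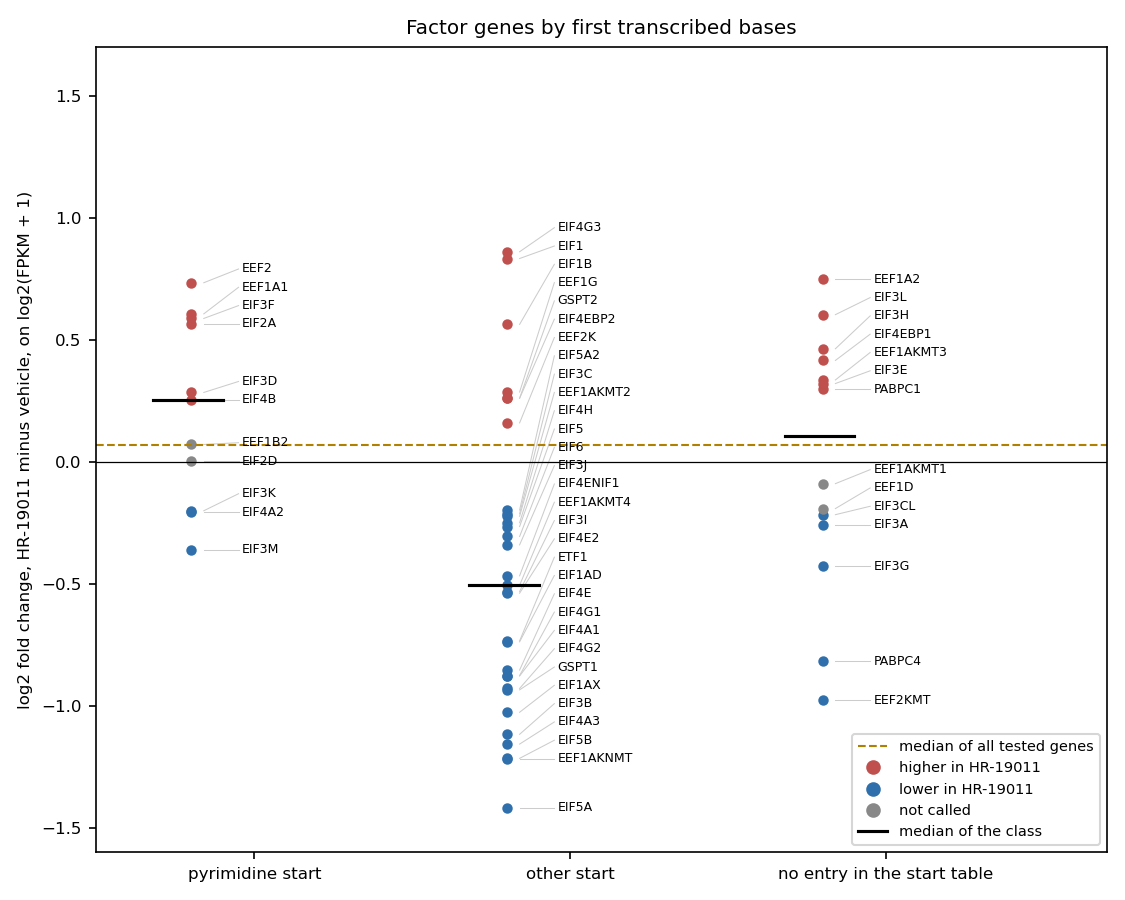
Log2 fold change (HR-19011 minus vehicle, on log2(FPKM + 1)) of the 56 tested factor genes by the class of their first transcribed bases, with class medians as bars and the all-gene median dashed. The 11 genes with a pyrimidine start lie between -0.36 and 0.73, and the 31 with another start reach from -1.42 to 0.86.

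Genes around the factors were read from a list of 57 others in the translation pathway, of which 56 were tested, 17 were higher and 29 lower. This put 82.1% of them as called, near the 84.4% of all tested genes. By direction 30.4% were higher and 51.8% lower, against 46.4% and 38.0% of all tested genes. The highest 2 were GTPBP2 and PDCD4. GTPBP2, a GTPase of stalled-ribosome rescue, averaged 165 ± 5.16 FPKM with HR-19011 and 26.2 ± 1.32 FPKM with vehicle (SD, n = 3 each; log2 fold change 2.61). PDCD4, an inhibitor of eIF4A, averaged 22.4 ± 0.207 FPKM with HR-19011 and 3.80 ± 0.225 FPKM with vehicle (2.29). MKNK2, a kinase of eIF4E, was higher by 1.72 on the log2 scale. Its sublist of 6 kinases of eIF4E and eIF4B had 2 higher and 3 lower, and the 10 tested PABP partners and cap regulators, PDCD4 among them, had 3 higher and 6 lower.

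Enzymes that complete the modified residues of eIF5A and eEF2 were lower in 4 of 9 cases and higher in 1. With 55.6% called they lay below the 84.4% of all tested genes. DOHH, which performs the last step of hypusine formation on eIF5A, had a log2 fold change of -1.54, beside -1.42 for EIF5A itself. DHPS, which performs the first step and was singled out after its values were seen, was not called (0.01, adjusted p = 0.798), with 33.0 ± 0.345 FPKM in HR-19011 and 32.7 ± 2.21 FPKM in vehicle, though TMM scaling called it lower (-0.24) and quantile normalization and TPM higher (0.13 and 0.14). DPH2, of diphthamide synthesis on eEF2, was lower (-1.67) while EEF2 was higher, and DPH5 of the same pathway was higher (0.58). LARP1, the TOP mRNA binding protein, was lower (-0.76). Of 10 recycling and rescue genes 4 were higher and 4 lower, with ABCE1, the recycling ATPase, at -1.07 and HBS1L at -0.68.

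The eIF2 and eIF2B genes, set apart from the 61 by the rule, divided too. EIF2S1, which encodes eIF2α, was lower (-0.78) while EIF2S2 (0.26) and EIF2S3 (0.35) were higher, the call of EIF2S2 being lost after TMM scaling, and 4 of 5 eIF2B genes were lower, with EIF2B3 at -1.31 and EIF2B1 at -1.29. Of 4 eIF2α kinases 3 were called higher, led by EIF2AK3 (1.73), the call of EIF2AK2 (0.29) being lost after TMM and quantile scaling. EIF2AK1, the gene of HRI, was called higher at 0.13 as deposited and called lower at -0.12 after TMM scaling. Mitochondrial translation factors were lower in 7 of 9 cases, with TUFM, the elongation factor Tu of mitochondria, at -0.90. Counts in this list depended on scaling as well, with 7 higher and 42 lower after TMM scaling. The sign differed between the 4 scalings for 17 of its 56 tested genes.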

How the data were processed

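The RNA came from K562 cells, in 6 libraries with 3 per group, and groups came from the sample titles. Per the labels' protocols, RNA was extracted with TRIzol and made into stranded polyadenylated RNA libraries. The submitters' processing notes name StringTie 2.1.3b, HISAT2 2.1.0, Trimmomatic 0.38, SAMtools 1.9, DESeq2 1.24.0, Bowtie2, HISAT and GRCh38, with no role for each. Per the file headers, the deposited values are FPKM, scaled by the authors for transcript length and library size. The rule for reads matching several genes is not given in these sources. Depth is unknown: at the best candidate step, 27.0% to 30.8% of a library's low values fell within 0.1 of whole multiples, where 1 step gives 20% by chance, so reads were not recovered. No pair of libraries within a group shared more than 0.0208% of its nonzero values.

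The 11856 genes that averaged 1 FPKM or more were tested on log2(FPKM + 1), which understates changes of low genes, with limma 3.58.1 in R 4.3.3, group alone in the model, a trended variance, two-sided moderated tests, Benjamini-Hochberg adjustment over all tested genes and a threshold of 0.05. A fold without log2 is the ratio of the group means in FPKM. Shares and ratios had exact two-sided permutation tests over libraries. The factor genes, role groups and other lists were chosen with earlier results of these data known. Any factor gene could be named. Values in every library were given for 14 genes fixed by name and up to 3 genes per role group with the smallest p, and for EIF3M, EIF4G3, EIF4EBP3 and EIF4E3, chosen after their values were seen. Other pathway genes were named by the smallest p within each sublist. Alternatives were other pseudocounts (0.1 and 5), other filters, TMM scaling (own code, trims of 30% on log ratios and 5% on mean logs), quantile normalization, TPM, a replicate block, no variance trend and each library left out. Positions and promoter sequences came from RefSeq (GRCh38.p14), matched by gene identifier or symbol.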

Additional observations from a re-analysis of the deposited data

How the results depend on the processing

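Of the 56 tested factor genes, all kept their direction and call with pseudocounts of 0.1 and 5, without a variance trend and with the replicate block (20 higher, 32 lower). TMM scaling lowered the factor genes called higher to 11, left 9 role groups with more genes lower than higher in place of 5, and lowered the other translation genes called higher to 7. It turned EEF1B2 to -0.18, EIF2D to -0.25, EIF4B to -0.000934 and EEF2K to -0.0720. Of the other translation genes it turned EIF2B2 to -0.0873, EIF2AK1 to -0.12, MTIF3 to -0.0877 and DHPS to -0.24, besides some not named here. Over all tested genes of each list, the sign differed between scalings for 6 of 56 factor genes and 17 of 56 other translation genes. Quantile normalization turned GSPT2 to -0.0863 and EIF2B2 to -0.0768, and TPM turned EEF1AKMT1 to 0.00696. TMM scaling and TPM divide each library by a factor, and quantile normalization gives each rank the same value in every library. TPM also makes values larger while the pseudocount stays at 1, which acts most on low genes. Under quantile normalization 13 of 14 ratios moved by over 1 SD and none changed sign. Leaving out each library gave EIF2D -0.0227 (without HR-19011 replicate 2) to 0.0324, and -0.00921 without vehicle replicate 2. Without mitochondrially encoded and globin genes in the total, the difference in share was 0.301 percentage points for all factor genes and 0.491 for elongation factors. Lower calls among pyrimidine starts, 3 as reported, numbered 5 with a start within 1 base, 5 after TMM scaling, 1 after quantile normalization and 1 with TPM, and 3 where every listed start had to qualify. The higher calls there, 6 as reported, numbered 7, 4, 8, 8 and 6, so the balance turned after TMM scaling. Leaving out each library gave 19 to 20 factor genes higher and 32 to 33 lower, 15 to 17 other translation genes higher and 28 to 29 lower, 5 role groups with more genes lower in each case, 13 to 14 ratio pairs without overlap, 6 to 7 pyrimidine starts higher and 3 lower, and share differences of 0.483 to 0.518 and 0.529 to 0.561 percentage points. Without the modifying enzymes and EIF3CL, an alternative added after seeing the data, as were those on start classes, 18 were higher and 27 lower. Of the initiation factors, a count narrowed after seeing the data, 7 to 11 were higher and 16 to 20 lower under all settings tried, and 12 and 23 with the binding proteins and the other genes left out of it. Libraries with the same replicate number did not deviate together (correlations -0.03, -0.00 and -0.11 across genes), so no shared replicate effect was seen. This cannot tell whether same-numbered libraries were grown or handled together, which the labels do not state. The block lost the call of EIF2B2 alone among the other named genes. The unknown depth limits genes near or below 1 FPKM, EIF4E3, EIF4EBP3, EIF5A2 and GSPT2 among them.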
